A study of Mus musculus with 2 samples.

Results

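Naive-high stem cells were the mouse embryonic stem cells whose transcripts of 7 genes of naive pluripotency took the largest share of the cell's RNA. For each cell the UMIs (unique molecular identifiers, each marking 1 captured molecule) of Nanog, Esrrb, Tfcp2l1, Klf4, Tbx3, Prdm14 and Nr5a2 were summed and divided by the cell's UMIs, per 10000. The top 10% of the cells of both libraries together were taken, which gave 771 of 7709 cells. The 771 cells with the lowest scores served as the contrast and are called low cells. The members were thus chosen by the measured values of the 7 genes, and no test was made of high against low cells.

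The cells were E14 mouse embryonic stem cells of 129/Ola background, grown on gelatin in medium with 15% serum and leukaemia inhibitory factor (LIF) and transfected by lipofection. The control group received a control siRNA and the sonKD group an siRNA against Son, whose protein belongs to nuclear speckles and takes part in splicing. Cells of both groups were collected 24 hours after transfection, frozen, thawed, sorted for exclusion of the dye 7-AAD and barcoded with 10x Genomics Single Cell 3' v3 chemistry. Each treatment had 1 library of 1 culture of this line, so nothing below has a replicate check, and the siRNA's effect cannot be told apart from a difference between the 2 libraries.

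Naive pluripotency is the state of the epiblast before implantation, and mouse embryonic stem cells hold it in culture with LIF. Its factors activate one another, and in serum with LIF single cells are known to vary in them, with Nanog, Esrrb, Klf4 and Tbx3 as well-known examples. Cells that lose the naive factors move toward the formative and then the primed state, in which Otx2, Dnmt3a, Dnmt3b and Fgf5 are known to be high.

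In all, 71046373 UMIs on 1408944 barcodes were counted for control and 60352438 on 1400093 for sonKD. At least 2500 UMIs and 1000 genes were found in 5603 and 3787 barcodes. Of these, 4978 control cells and 2731 sonKD cells also had at most 10% mitochondrial UMIs and were kept. Median depth was 7737.5 UMIs per control cell and 11612 per sonKD cell. The libraries shared 2 cell barcodes among the kept cells, of which 1 was a high cell in either library and 0 were high in both. Son itself was at 197 CPM (the gene's share of the UMIs of the summed cells, scaled to a common total) in control high cells and 142 CPM in sonKD high cells, a log2 ratio of -0.47 (95% interval -0.67 to -0.27). In low cells the ratio was -0.80 (-1.02 to -0.59). Both ratios go the way the labels say.

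Promoter windows show the kind of element through which the score factors are known to act. RefSeq windows on GRCm38.p6, each of 300 bases from 250 before to 50 after a gene's start, were found for 5 of the 7 score genes and for 4330 of the 5383 genes tested below. The GT box GGGNGTGGC, the letters bound by Klf4 and its relatives, was searched on both strands and lay in 5.76% of all 32851 windows. It was found in 1 of the 5 score genes, Tfcp2l1, 48 bases before the start. It was also found 63 bases before the start of Krt18, a keratin gene that had the lowest mean ratio of all genes called in the high cells. The bases before the start of these 2 genes are shown because both carry the box, in capitals, one as the most abundant score gene and one as the gene lowest in the high cells. The window of Tfcp2l1 is chr1:118627695-118627944 on the plus strand and that of Krt18 is chr15:102027966-102028215 on the plus strand. They were chosen after the values were seen.
Tfcp2l1: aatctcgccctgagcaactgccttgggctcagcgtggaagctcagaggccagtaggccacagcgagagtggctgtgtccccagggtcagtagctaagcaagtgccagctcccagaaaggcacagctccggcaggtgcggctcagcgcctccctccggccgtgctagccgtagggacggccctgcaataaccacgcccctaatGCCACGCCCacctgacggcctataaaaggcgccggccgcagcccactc
Krt18: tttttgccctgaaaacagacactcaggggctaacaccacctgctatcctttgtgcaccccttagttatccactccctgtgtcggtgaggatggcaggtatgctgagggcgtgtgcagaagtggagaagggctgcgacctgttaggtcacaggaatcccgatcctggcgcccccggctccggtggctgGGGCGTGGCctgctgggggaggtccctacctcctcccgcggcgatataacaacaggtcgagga

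The box was not more frequent among the genes called higher. Counted by gene, in any of its windows, the box lay in 10.4% of all genes tested. It lay in 8.81% of 954 genes called higher in high cells and in 9.96% of 221 called lower. Among the genes called at equal long-gene share, a ranking explained below, it lay in 7.91% of 139 higher and 13.2% of 144 lower. The site TCAAGGTCA, which Esrrb and Nr5a2 are known to bind, lay in 0.423% of all windows and in 0 of the 5 score genes' windows. The palindrome TTCCNGGAA of the STAT factors lay in 1.15% of all windows and the T-box site TCACACCT in 1.27%, and neither was in a score gene's window. Counted by gene, the palindrome lay in 1.52% of all genes tested. It lay in 1.26% of the genes called higher and 3.17% of those called lower, or 12 and 7 genes. At equal long-gene share it lay in 0 of 139 higher and 2 of 144 lower genes. A match is a string of letters in a short window and says nothing of binding.

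The score formed a single continuous distribution in both libraries, and the high cells were its upper tail. The lowest score of a high cell was 17.3039 and the highest score of any other cell was 17.301. Within 1 score unit of that limit lay 179 high cells above it and 218 other cells below it. The highest score of a low cell was 4.21644, and the next cell above had 4.21674. A cut at a fixed share of many cells usually leaves close scores on either side. These values therefore cannot tell whether the high cells are a separate type. In the distribution of this score the high cells formed no peak of their own. The median score of high cells was 19.7 in control and 20.02 in sonKD, against 10.1 and 9.53 over all cells of each library and 2.90 in the low cells of both.

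**Figure D1:**
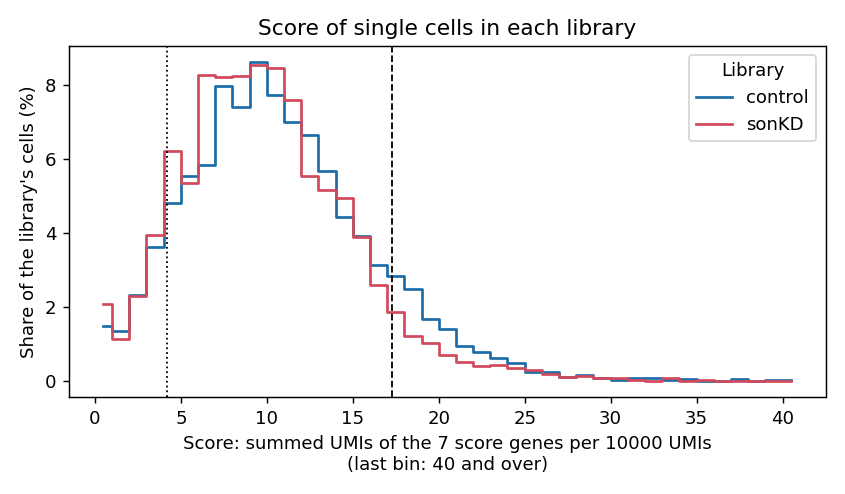
Distribution of the score (summed UMIs of the 7 score genes per 10000 UMIs, x axis) as a share of each library's cells in percent (y axis), for control and sonKD. The dashed line marks the limit of the high cells at 17.3 and the dotted line that of the low cells at 4.217, and neither falls in a gap between 2 peaks.

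More of the control cells than of the sonKD cells were high. The high cells numbered 586 of 4978 in control, or 11.8% (exact binomial interval 10.9 to 12.7), and 185 of 2731 in sonKD, or 6.77% (5.86 to 7.78). The low cells made up 9.62% of control and 10.7% of sonKD. After thinning each cell at random to 2500 UMIs before scoring, which removes the difference in depth, 10.6% of control cells and 8.93% of sonKD cells were high. Only 48.2% of the high cells were high again after thinning, and 1 of them was low. At that depth the 7-gene sum had a mean of 2.67 UMIs per control cell and 2.48 per sonKD cell. Its variance over its mean was 1.34 and 1.35, where independent draws of the same mean give 1.

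Depth behind the choice of a single cell was small. A control high cell had a median of 15 score UMIs (5 to 48) out of a median of 7476.5 UMIs in all, and a control low cell 2 (0 to 12) out of 6962. A sonKD high cell had 21 (5 to 55) out of 10280, and a sonKD low cell 3 (0 to 11) out of 10164.5. High and low cells of a library were thus close in depth. High cells held more genes, with a median of 2933 against 2527 in control and 3361 against 3104.5 in sonKD. Thinned to 2500 UMIs these medians were 1385 against 1285 and 1340 against 1254.

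The other measures of the cells that moved with the score were the shares of UMIs in ribosomal and long genes. In control, 19.4% of the UMIs of high cells and 22.5% of those of low cells came from ribosomal protein genes, and 22.4% against 25.4% in sonKD. Mitochondrial genes took 4.14% against 3.86% and 4.84% against 4.25%. This share did not follow the score throughout, since the cells between the classes had the least, 3.78% in control and 4.14% in sonKD. Genes outside the score that span at least 100 kb of the genome took 8.82% against 6.16% and 8.24% against 5.98%. Long genes are mostly intron, and how the authors' counting treated intronic reads is not given in the sources used here. Because this share moved with the score in both libraries, the main ratios and list counts below are also given after ranking the cells within each library and within deciles of the long-gene share. In that ranking, called equal long-gene share, the median share was 6.99% in high and 7.01% in low control cells and 6.24% and 6.26% in sonKD. It held 74.2% of the high cells.

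The score genes in the cells they chose are given as a description only. Tfcp2l1, a transcription factor downstream of LIF, was the most abundant, at 690 CPM in control high cells and 84.1 in low cells, and at 684 and 84.5 in sonKD. Nanog, the homeobox factor of the naive network, was at 316 and 45.4 CPM in control and at 292 and 45.2 in sonKD. Prdm14, a repressor of DNA methylation and differentiation genes, was the least abundant, at 22.6 and 2.42 CPM in control and at 27.0 and 2.10 in sonKD. The log2 ratios of the 7 genes lay between 2.65 and 3.68. By Ensembl identifier and GRCm38 position the longest was Esrrb (ENSMUSG00000021255; chromosome 12, 86361117 to 86521628), and Nr5a2 (chromosome 1, 136842571 to 136960448) also spans over 100 kb. As score genes, both were left out of the long-gene share.

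To read each score gene in cells it had not chosen, the cells were ranked by the other 6 genes and the gene left out was measured. In both libraries each of the 7 genes was higher in the cells that the other 6 placed at the top, by about 2-fold for most. Nanog was at 231 CPM in high and 126 in low control cells and at 211 and 85.9 in sonKD, log2 ratios of 0.88 (0.72 to 1.04) and 1.30 (1.06 to 1.53). Esrrb, an orphan nuclear receptor of the naive network, was at 192 and 93.6 CPM in control and at 190 and 83.6 in sonKD, ratios of 1.04 (0.85 to 1.23) and 1.19 (0.95 to 1.43). Tfcp2l1 was at 447 and 253 CPM in control and at 449 and 214 in sonKD, ratios of 0.82 (0.71 to 0.94) and 1.07 (0.92 to 1.23). These 3 genes had intervals well above 0 in both libraries.

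The remaining 4 behaved alike. Klf4, a zinc finger factor that acts downstream of LIF, had ratios of 0.80 (0.61 to 0.99) in control and 1.09 (0.86 to 1.33) in sonKD. Tbx3, a T-box factor downstream of PI3K signalling, was at 266 and 143 CPM in control and at 257 and 110 in sonKD, ratios of 0.90 (0.74 to 1.06) and 1.22 (1.02 to 1.43). Prdm14 was thinly counted, with ratios of 0.83 (0.22 to 1.47) and 2.41 (1.47 to 3.47). The sonKD value rests on 12 UMIs in low cells. Nr5a2, a nuclear receptor that can activate Pou5f1, had ratios of 0.78 (0.52 to 1.05) and 0.96 (0.64 to 1.29). Over the 14 ratios the median was 1.00, and 0.53 when the score was made from cells thinned to 2500 UMIs.

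Dependence on long genes touched the score genes unequally. In the ranking at equal long-gene share, Nanog had ratios of 0.96 in control and 1.17 in sonKD, and Klf4 0.89 and 1.11, both short genes with values close to those above. Esrrb had 0.70 and 0.77, and Nr5a2 0.23 (-0.03 to 0.50) and 0.50 (0.17 to 0.83). The control interval of Nr5a2 thus reached 0. When the score came from a random part of each cell's UMIs and levels from the remaining part, the 7 ratios lay between 0.65 and 1.23 in control and between 1.11 and 1.70 in sonKD. The control interval of Prdm14 in that reading ran from -0.15 to 1.49.

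**Figure D2:**
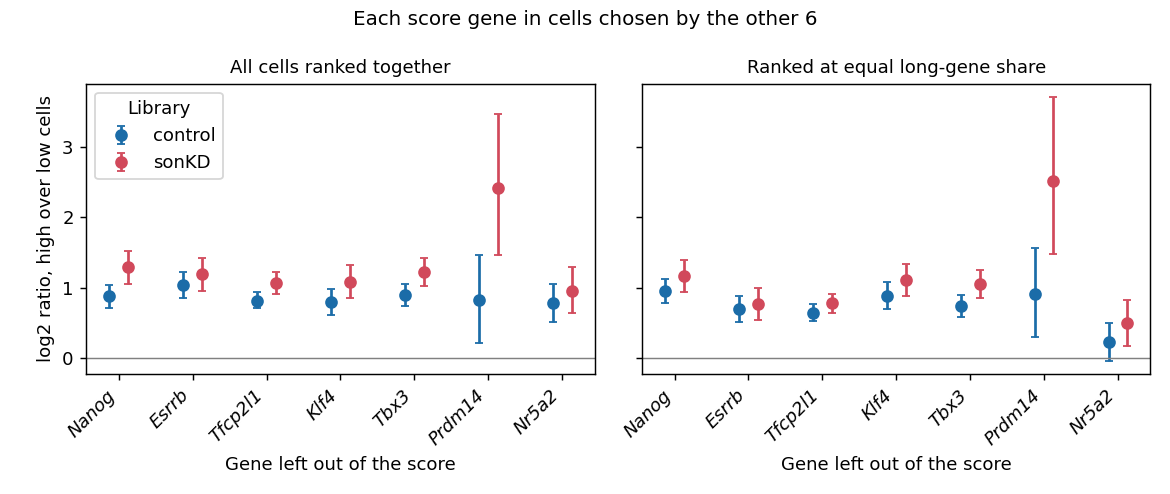
Log2 ratio of each score gene, high over low cells (y axis), in cells ranked by the other 6 score genes, with exact 95% counting intervals, for control and sonKD. In the left panel all 14 intervals lie above 0, and in the right panel, at equal long-gene share, the control interval of Nr5a2 (-0.03 to 0.50) reaches 0.

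Genes outside the score were compared between the high and the low cells of the same library. A gene was compared when its mean over the 4 sums reached 25 CPM, which 5383 genes did. It was called higher when it was at least 25% higher in the high cells of both libraries and lower when it was at least 20% lower in both, which is the same fold. By this rule 1237 genes, or 23.0% of those compared, were higher in high cells, and 261, or 4.85%, were lower. The median log2 ratio of all genes was 0.11 in control and 0.12 in sonKD. With mitochondrial and ribosomal protein genes left out of the CPM total, the counts were 1255 higher and 474 lower. With equal long-gene share, 188 genes were higher and 176 lower of 5302 compared, with medians of 0.00 and 0.01, and 163 and 72 of the first sets of calls were among them. The surplus of higher over lower calls was thus much smaller at equal long-gene share. Of the genes named by rule, 36 were called higher and 20 lower. At an equal share of long genes 16 and 16 of them were still called, after thinning 24 and 12, and with at most 5% mitochondrial UMIs 33 and 16.

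**Figure D3:**
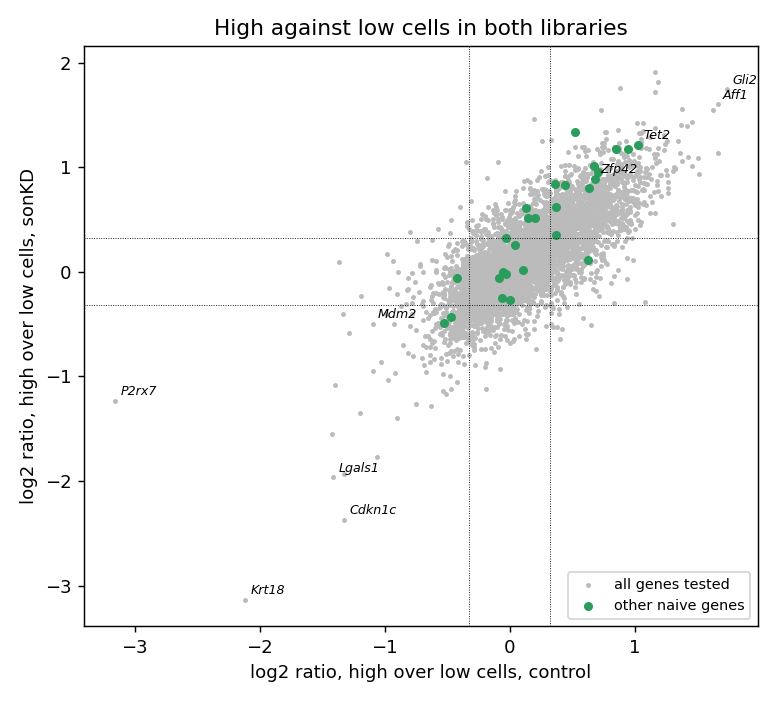
Log2 ratio of each gene compared, high over low cells, in control (x axis) and sonKD (y axis). Dotted lines mark the fold used for calls in each direction and green points the other naive genes, of which 12 of 27 lie in the upper right region and 2 in the lower left, while Krt18, at -2.12 and -3.14, lies farthest down.

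Naive genes that the score did not use were higher in high cells more often than lower. Of 34 such genes 27 were compared, and 12 were called higher against 2 lower, beside 23.0% and 4.85% of all genes. Their median was 0.21 in control and 0.51 in sonKD. Ranked at equal long-gene share, 8 were called higher and 1 lower, beside the 188 and 176 calls of all genes. Only 6 of the 12 genes first called higher and 1 of the 2 first called lower were among these. The medians were 0.23 and 0.34. For a reader of single genes, Zfp42 (Rex1) is the usual reporter of this state. It was at 788 CPM in high and 490.5 in low control cells and at 858 and 462 in sonKD, log2 ratios of 0.68 (0.60 to 0.77) and 0.89 (0.79 to 1.00). Both high values lay above both low values, and at equal long-gene share the ratios were 0.61 and 0.72.

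Tet2, a dioxygenase that oxidises methylated cytosine, was at 217 and 106 CPM in control and at 205 and 88.4 in sonKD, ratios of 1.03 (0.85 to 1.21) and 1.21 (0.98 to 1.45). Zfp57, which guards methylation at imprinted loci, was at 203 and 106 CPM in control and at 209 and 92.6 in sonKD, ratios of 0.95 (0.77 to 1.13) and 1.18 (0.95 to 1.41). These were the farthest members of the list, and at equal long-gene share Tet2 had 0.60 and 0.78 and Zfp57 0.59 and 0.66. Klf2, a zinc finger factor close to Klf4, was at 429 and 332 CPM in control and at 414 and 270 in sonKD, ratios of 0.37 (0.26 to 0.48) and 0.62 (0.47 to 0.76). It had 0.65 in both libraries at equal long-gene share, above the 0.37 of the first ranking in control. After thinning it had 0.13 and 0.37, and with at most 5% mitochondrial UMIs 0.30 and 0.41, which ends its call.

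The list was not uniform. Jam2, an adhesion molecule, had ratios of 0.85 and 1.18, Manba 0.52 and 1.34, and Fgf4, the growth factor of these cells, 0.71 and 0.95. Of these, Jam2 alone was still called at equal long-gene share, with 0.71 and 0.88. Gdf3, a ligand of the TGF-beta family, and Dppa4, a chromatin factor, were the 2 members called lower. Gdf3 was at 73.2 CPM in high and 105 in low control cells and at 64.6 and 90.5 in sonKD. Dppa4 was at 67.3 and 92.9 CPM and at 77.4 and 104. At equal long-gene share Dppa4 was still called, with -0.42 in both, and Gdf3 was not, with -0.29 and -0.30. Dppa5a, among the most abundant, had 0.05 and 0.26, and Mkrn1, Mylpf and Bmp4 lay within 0.10 of 0 in both libraries. Dppa3 had 5, 4, 1 and 12 UMIs in control high, control low, sonKD high and sonKD low cells, too few to compare.

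The core factors, which naive and primed cells share, showed no common direction. Of 9 genes 2 were called higher and 1 lower, beside 23.0% and 4.85% of all genes, with medians of 0.06 and 0.05. Pou5f1 (Oct4), the defining factor of pluripotent cells, was at 1080 CPM in high and 1190 in low control cells and at 903 and 896 in sonKD, ratios of -0.14 (-0.20 to -0.08) and 0.01 (-0.08 to 0.10). Sox2, its partner, was at 384 and 287 CPM in control and at 411 and 257 in sonKD, ratios of 0.42 (0.31 to 0.54) and 0.67 (0.53 to 0.82). Sox2 lies inside Sox2ot on the same strand, so reads of these genes could not be kept apart in full. Sall4, a zinc finger factor bound to both, had 0.64 and 0.80. Utf1, a chromatin factor that is also on the formative list, was lower, at 339 and 481 CPM in control and at 341 and 480 in sonKD, ratios of -0.50 (-0.61 to -0.40) and -0.49 (-0.63 to -0.36). With long-gene share held equal, 2 core genes were still higher and 0 were lower, with Utf1 at -0.21 and -0.30. After thinning none of the 3 was called.

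**Figure D4:**
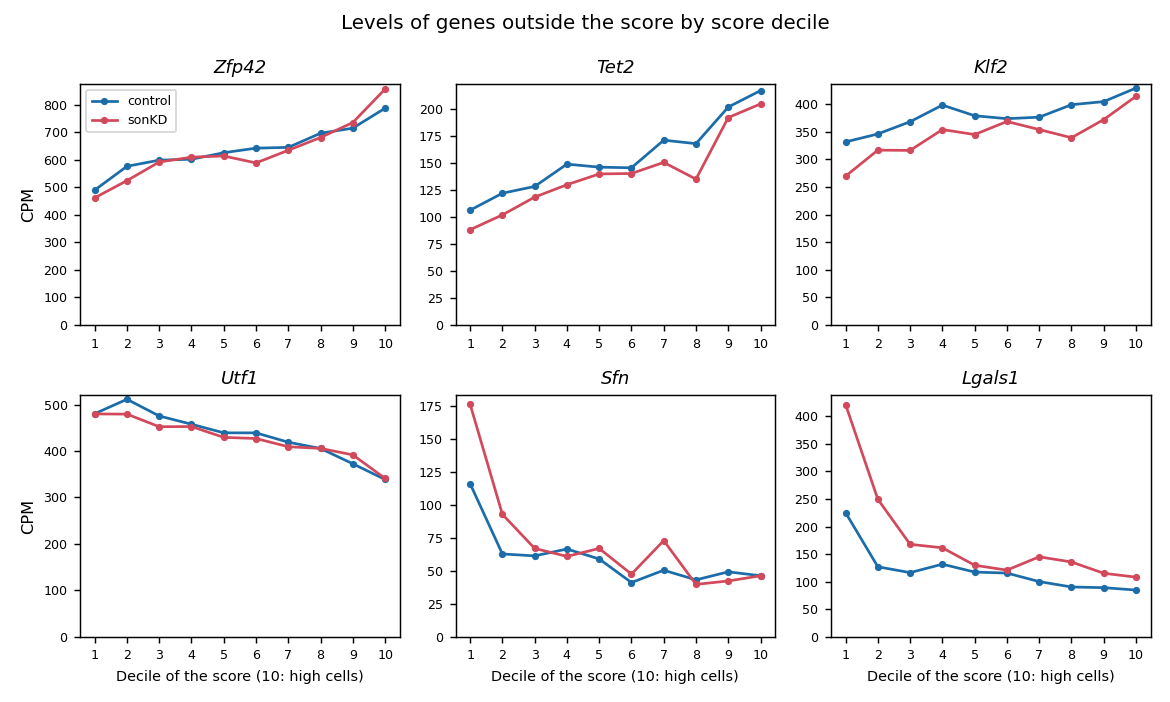
CPM (y axis) of 6 genes outside the score in the cells of each decile of the score (x axis; 1 holds the low cells and 10 the high cells), for control and sonKD. Zfp42 goes from 490.5 to 788 CPM in control and from 462 to 858 in sonKD across the whole range, Utf1 from 481 to 339 and from 480 to 341, and Sfn and Lgals1 drop most between the first and the second decile.

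Along the deciles of the score the genes took different courses, shown in the plot of levels by score decile. Zfp42 had 577 CPM in the second decile of control and 716 in the ninth, and 525 and 736 in sonKD. Utf1 had 512 and 373 in control and 480 and 392 in sonKD. The levels of both genes thus moved over the whole range, though the Utf1 call does not hold at equal long-gene share. Krt18 went from 56.3 to 19.8 CPM between the first and the second decile of control and Mdm2 from 322 to 145, and their ninth deciles had 18.0 and 133. In sonKD Mdm2 went from 226 to 112, while Krt18 kept 77.4 in the second decile. In the high cells Mdm2 was at 151 CPM in control and 160 in sonKD. Both values were above every decile of their library except the first. The 12 genes measured this way, and those plotted, were chosen after their values were seen.

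Formative and primed genes were mostly too low to compare. Of 31 genes 11 reached 25 CPM, and 2 were called higher and 4 lower, beside 23.0% and 4.85% of all genes. The medians were 0.01 in control and -0.44 in sonKD. The sonKD median was much smaller in size in several other settings, given in the last section. Once the long-gene share was equal, 1 was higher and 3 lower, with medians of -0.20 and -0.21. The 4 genes first called lower were Dnmt3a, Utf1, Id1 and Etv4, of which Dnmt3a and Id1 were lower in both rankings, while Dnmt3b was lower at equal long-gene share only. Id1, a target of BMP signalling, was at 226 CPM in high and 328 in low control cells and at 134 and 263 in sonKD, ratios of -0.54 (-0.66 to -0.41) and -0.98 (-1.19 to -0.77). Etv4, a target of FGF signalling, had -0.49 and -0.44. Its relative Etv5 had 0.54 and 0.51, and Lin28b, an RNA-binding protein that blocks let-7, had 0.60 and 0.75. Neither was called at equal long-gene share, where Etv5 had 0.20 and 0.17 and Lin28b -0.05 and 0.26. Otx2, the leading formative factor, had only 11.4 and 7.87 CPM in control and 15.9 and 4.56 in sonKD, below the level compared. Its log2 ratios were 0.54 (-0.17 to 1.28) and 1.80 (0.82 to 2.86), the latter with 13 UMIs in low cells. Pou3f1, also below that level, went the other way, with -0.38 (-0.96 to 0.20) and -3.01 (-4.69 to -1.71).

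Of the 8 genes of DNA methylation compared, 3 were called higher and 2 lower, beside 23.0% and 4.85% of all genes. The 2 lower ones were a de novo enzyme and the cofactor of these enzymes. Dnmt3a was at 21.5 CPM in high and 34.2 in low control cells and at 17.5 and 34.0 in sonKD, ratios of -0.67 (-1.07 to -0.26) and -0.96 (-1.58 to -0.38). Dnmt3l, the cofactor without catalytic activity, was at 37.2 and 67.2 CPM and at 38.7 and 62.8. Dnmt3b had -0.19 (-0.50 to 0.13) in control and -1.12 (-1.61 to -0.65) in sonKD, and so was not called. At equal long-gene share Dnmt3a had -1.14 and -1.11 and Dnmt3b -0.72 and -1.29, which passes the fold used for calls in both libraries.

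The 3 genes called higher were Tet2, given above, Tet1 and Uhrf1. Tet1, a relative of Tet2, was at 520 CPM in high and 282 in low control cells and at 491 and 299 in sonKD, ratios of 0.88 (0.77 to 0.99) and 0.72 (0.58 to 0.85). Uhrf1, which brings the maintenance enzyme to replicated DNA, had 0.41 and 0.53, and that enzyme, Dnmt1, 0.20 and 0.48. The medians of the list were 0.16 and 0.41. At an equal share of long genes only Tet2 was still higher, Tet1 having 0.27 and 0.32 and Uhrf1 0.19 and 0.37, while Dnmt3a, Dnmt3b and Dnmt3l were lower.

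Signalling lists are given beside the 23.0% of all genes called higher and the 4.85% called lower, and most of their calls were absent at equal long-gene share. For the LIF pathway, which keeps these cells undifferentiated, 2 of 10 genes were called higher and 1 lower, with medians of 0.27 and 0.16. The shared receptor chain Il6st had 0.58 and 1.19 and the kinase Jak1 0.52 and 0.61, while Junb, a target gene, had -0.44 and -0.57. Ranked at equal long-gene share, Il6st had -0.42 in control and 0.69 in sonKD, so its direction in control turned, and Jak1 kept 0.40 and 0.51. Stat3 had 0.61 and 0.22 and its target Socs3 0.14 and 0.21, and neither was called.

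For WNT signalling 4 of 7 genes were called higher and 0 lower. Tcf7l1, the repressor that WNT relieves, had 0.93 and 0.71, and the receptor Lrp6 0.70 and 0.60. Apc, of the complex that degrades beta-catenin, had 0.53 and 0.75, and Ctnnb1, beta-catenin itself, 0.45 and 0.35. Once the long-gene share was equal, 0 of the 7 were higher and 1 was lower, with Tcf7l1 at 0.23 and 0.26. For FGF and ERK signalling 3 of 12 were higher and 1 lower, with Sos1, the exchange factor of Ras, at 0.97 and 0.46, and 0 of 11 were called at equal long-gene share. Fgf4 was at 130 CPM in high and 79.6 in low control cells and at 116 and 59.6 in sonKD, and had 0.31 and 0.42 at equal long-gene share.

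For Nodal signalling 4 of 7 genes were called higher and 0 lower, and 0 of 7 at equal long-gene share. Smad7, the inhibitor induced by this pathway, was at 219 CPM in high and 135 in low control cells and at 229 and 127 in sonKD, ratios of 0.70 (0.54 to 0.86) and 0.85 (0.65 to 1.06). It had 0.30 and 0.53 at equal long-gene share. Pcsk6, a protease that cuts the Nodal precursor, had 0.37 and 0.77, then -0.06 and 0.11. For BMP signalling 1 of 5 was higher, the receptor Bmpr2 at 0.70 and 0.85, and 1 was lower, Id1. At equal long-gene share 0 were higher, with Bmpr2 at 0.18 and 0.40, and Id1 was still lower.

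The genes with the highest ratios were long genes rather than known naive factors. Gli2 (ENSMUSG00000048402; chromosome 1, 118834132 to 119053619), a transcription factor of Hedgehog signalling, was at 198 CPM in high and 59.3 in low control cells and at 199 and 59.3 in sonKD, log2 ratios of 1.74 (1.52 to 1.97) and 1.75 (1.48 to 2.02). Aff1, a part of the super elongation complex, was at 165 and 52.1 CPM in control and at 166 and 54.7 in sonKD, ratios of 1.67 and 1.60. In the ranking at equal long-gene share, Gli2 had 0.86 and 0.91 and Aff1 1.08 and 1.17, so both still passed the fold used for calls. Aff1 also has the GT box, 196 bases before a start. Tns1, Pdgfc, Crtac1, Uty, Btbd11, Eya1, Lpar1 and Dstyk made up the rest of the 10 highest, with ratios from 1.14 to 1.91. Of the 10, only Dstyk, at 49404 bases, spans under 100 kb.

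The ratio of a gene went with its span in both libraries. The 595 genes under 5 kb had a median of -0.23 in control and -0.18 in sonKD, and 1.85% of them were called higher and 14.1% lower. The 1476 genes of 20 to 50 kb had 0.16 and 0.15, with 18.5% higher and 2.24% lower. The 276 genes of 200 kb and over had 0.63 and 0.52, with 63.8% higher and 0 lower. With long-gene share held equal, the medians of the 7 span classes lay between -0.04 and 0.05. Nuclear RNA moved the same way. Malat1, a nuclear RNA of speckles, was at 3624 CPM in high and 2053 in low control cells and at 3682 and 1939 in sonKD, ratios of 0.82 and 0.93, and had 0.24 in both libraries at equal long-gene share. Of 13 speckle and nuclear RNA genes 6 were called higher and 0 lower, beside 23.0% and 4.85% of all genes. At equal long-gene share 0 were called. Kcnq1ot1, the antisense RNA of the imprinted Kcnq1 locus, had 1.02 and 0.76, then 0.20 and 0.12. The part of unspliced or nuclear RNA in these ratios was not tested.

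**Figure D5:**
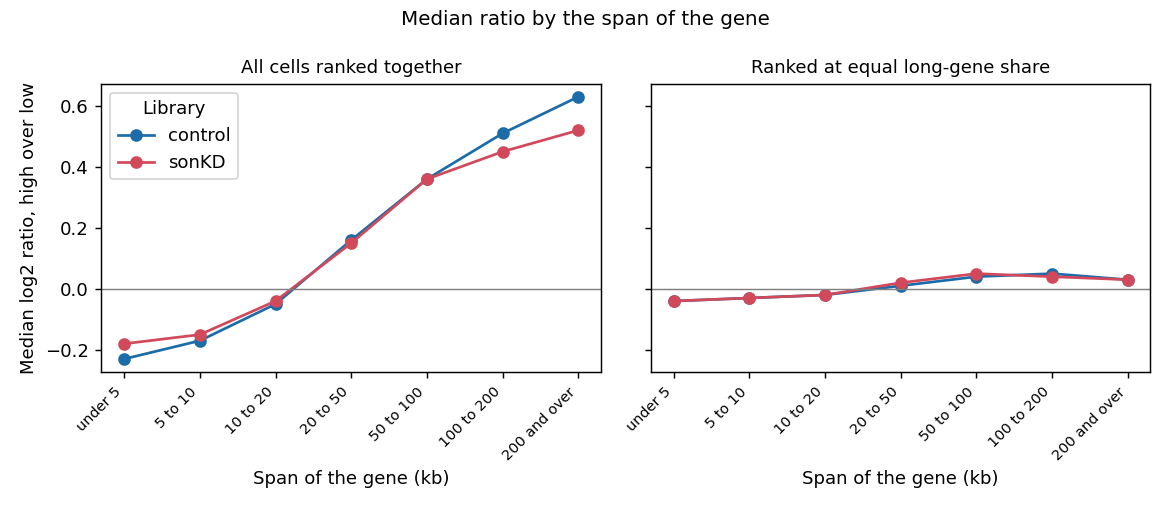
Median log2 ratio, high over low cells (y axis), of genes by the span of the gene in kb (x axis), for control and sonKD. With all cells ranked together the median goes from -0.23 to 0.63 in control, and with cells ranked at equal long-gene share the medians stay between -0.04 and 0.05.

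The 10 genes lowest in high cells by mean ratio were Krt18, P2rx7, Cdkn1c, Lgals1, Sfn, Plaur, AY036118, S100a6, Anxa2 and Anxa3. Krt18 (ENSMUSG00000023043; chromosome 15, 102028180 to 102032027), a keratin of simple epithelia and early trophectoderm, was at 13.0 CPM in high and 56.3 in low control cells and at 12.7 and 112 in sonKD, log2 ratios of -2.12 (-2.57 to -1.69) and -3.14 (-3.80 to -2.54). Its partner keratin Krt8 had -0.75 and -1.26, and at equal long-gene share -0.02 (-0.37 to 0.32) and -1.68. Krt18 kept -1.47 and -3.22 there. Of the last 500 bases of Krt18 transcripts, 10.4% by 31-base words occur in another gene, so a part of its reads could be assigned elsewhere.

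Few cells carried these UMIs. The 10 low cells with the most Krt18 UMIs held 63.4% of the Krt18 UMIs of control low cells and 71.8% of those of sonKD, with up to 39 and 49 UMIs in a cell. In high cells no cell had more than 2. The same look at Krt8, with its own 10 cells, gave 53.6% and 67.3%. Free RNA in droplets of 100 to 500 UMIs held Krt18 at 17.3 CPM in control and 20.1 in sonKD, above both high values. Krt18 in high cells therefore did not exceed the level of free RNA. This look at single cells was chosen after the ratios were seen.

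Lgals1, a secreted galectin, was at 84.6 CPM in high and 225 in low control cells and at 108 and 422 in sonKD, ratios of -1.41 (-1.59 to -1.23) and -1.96 (-2.18 to -1.75). Sfn (14-3-3 sigma), a p53 target that holds cells before mitosis, was at 46.2 and 116 CPM and at 46.1 and 176, ratios of -1.33 and -1.93. Cdkn1c (p57), an inhibitor of the cell cycle, was at 31.9 and 79.9 CPM and at 17.5 and 90.5. For these genes both high values were below both low values. Ranked at equal long-gene share, Lgals1 had -1.08 and -1.95, Sfn -1.17 and -2.09 and Cdkn1c -1.26 and -2.57. The 10 cells with the most UMIs held 26.3% and 35.4% of the Lgals1 UMIs of low cells and 41.8% and 50.4% of those of Sfn. S100a6, Plaur, Anxa2 and Anxa3 had ratios from -0.90 to -1.55. Free droplet RNA of the control library held Lgals1 at 238.5 CPM, above its level in both classes, and Sfn at 47.2, Cdkn1c at 44.1 and S100a6 at 173, above their levels in high cells. In sonKD droplets Lgals1 had 263 CPM, Sfn 43.8, Cdkn1c 23.1 and S100a6 293, between the low and high cells or, for Sfn, just under the high cells.

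P2rx7, an ATP-gated channel, was at 6.38 CPM in high and 56.9 in low control cells and at 17.5 and 41.03 in sonKD, ratios of -3.16 and -1.23. The 10 cells with the most UMIs held 73.4% and 79.5% of its UMIs in low cells. With cells kept only up to 5% mitochondrial UMIs its ratios were -0.08 and 0.19, so the difference was not seen among cells within that limit. Krt18 had -2.21 and -3.07 under the same limit. AY036118 had -1.06 and -1.77, but all of its 3' end, by 31-base words, occurs in other genes. It overlaps CT010467.1 on the same strand. Free droplet RNA held AY036118 at 2650 and 1575 CPM, far above its 64.6 to 226 CPM in cells.

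Of the p53 targets 0 of 16 were called higher and 2 lower, beside 23.0% and 4.85% of all genes. Their medians were -0.24 in control and 0.03 in sonKD. Mdm2, the ligase that degrades p53, was at 151 CPM in high and 322 in low control cells and at 160 and 226 in sonKD, ratios of -1.10 (-1.24 to -0.96) and -0.50 (-0.70 to -0.30). Its values in high cells were still above those of every score decile except the first, which holds the low cells. Perp, a membrane protein of p53-driven death, had -0.77 and -0.81. Cdkn1a (p21) had -0.57 (-0.83 to -0.31) in control and 0.41 (0.06 to 0.75) in sonKD, so the libraries differed in direction. Btg2 had -0.98 (-1.32 to -0.63) and 0.17 (-0.21 to 0.55), the sonKD interval reaching 0. Once the long-gene share was equal, 1 target was higher and 7 lower, beside 188 and 176 of the 5302 genes compared. The medians were -0.60 and -0.27, and Mdm2 had -1.20 and -0.68. With at most 5% mitochondrial UMIs Mdm2 had -0.73 and -0.26, which ends its call, and its level in control low cells was 166 CPM. This list thus had more calls in that ranking than in the first.

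Stress genes were called lower and not higher, beside 4.85% of all genes called lower. For the integrated stress response 0 of 9 were called higher and 4 lower, namely Atf4, its central factor, Trib3, Phgdh and Mthfd2, and at equal long-gene share 0 and 1. Trib3 had -0.38 and -0.80 and Mthfd2, a mitochondrial folate enzyme, -0.45 and -0.62. The Trib3 call ended at equal long-gene share, with -0.15 and -0.50, and at up to 5% mitochondrial UMIs, with -0.10 and -0.43, and after thinning its ratios were 0.11 and -0.03. For immediate early and heat shock genes 0 of 8 were higher and 2 lower, Junb and the chaperone Dnajb1. At equal long-gene share Dnajb1 alone was called, Junb having -0.33 and -0.24, and at up to 5% mitochondrial UMIs Dnajb1 had -0.45 and -0.27 and was not called. Of 15 glycolysis genes the glucose transporter Slc2a3, at 0.68 and 1.02, and the hexokinases Hk1, at 0.88 and 0.93, and Hk2 were called higher. Tpi1 and Ldha were called lower, and the medians were -0.20 and -0.18. Of all genes 23.0% were called higher and 4.85% lower. At an equal share of long genes Hk1 alone was called and the medians were -0.04 and 0.01. Slc2a3 had 0.32 and 0.53 at equal long-gene share.

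Cell cycle genes of both phases leaned the same way as all genes. Of 37 S phase genes 8 were called higher and 0 lower, with medians of 0.18 and 0.10. Pola1, the catalytic subunit of the polymerase that begins DNA strands, had 1.01 and 0.92, and Dtl, of a ligase complex active in S phase, 0.60 and 0.61. Of 49 G2/M genes 9 were higher and 1 lower, with medians of 0.20 and 0.16. Nek2, a kinase of the centrosome, had 1.05 and 1.33, Kif11, the spindle motor, 0.51 and 1.01, and Cdc20, the activator of the anaphase complex, -0.55 and -0.88. In the ranking at equal long-gene share, 0 genes of either list were higher, 0 of the S phase list were lower and 1 of the G2/M list was. The shares called higher are close to the 23.0% of all genes.

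Most defining markers of other lineages were at or near 0 in both classes. In the order control high, control low, sonKD high and sonKD low, Gata6 of primitive endoderm had 3, 4, 1 and 0 UMIs and Sox17 0, 2, 0 and 1. Cdx2 of trophectoderm had 1, 9, 1 and 9 and Hand1 0, 3, 0 and 2. Gata4 had 17, 15, 3 and 7. Sox1 of neuroectoderm had 41, 16, 16 and 7, or 9.01 and 4.84 CPM in control and 8.48 and 2.46 in sonKD, log2 ratios of 0.90 (0.03 to 1.83) and 1.79 (0.43 to 3.31), below the level compared. Elf5, Neurog2, Col1a2, Col3a1 and Lum had 0 in all 4 sums. The 2-cell-like genes had 0 UMIs over 9 genes. The trophectoderm list summed to 58.7 CPM in control high, 128 in control low, 64.6 in sonKD high and 222 in sonKD low cells, most of it from Krt8 and Krt18. The primitive endoderm list summed to 453, 459, 440 and 431 CPM, the mesoderm list to 4.40, 7.87, 3.71 and 4.56, the neuroectoderm list to 148, 101, 124 and 102, and the fibroblast list to 193, 250, 159 and 227.

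Few members of these lists could be compared. Lamc1, a laminin chain that is a long gene, had 0.76 and 0.58, and Lama1 0.10 and 0.60. At equal long-gene share they had 0.16 and 0.04, and -0.24 and 0.08. Ncam1, an adhesion molecule that is also long, had 1.19 and 0.77, Tubb3 -0.21 and -0.28, and Vim, an intermediate filament that many cell types carry, -0.38 and -0.52. None of these was called at equal long-gene share, with Ncam1 at 0.50 and 0.28 and Vim at -0.17 and -0.41. The part of other cell types in the ratios of high to low cells was not tested.

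Between the treatments, none of the 27 naive genes compared outside the score was 1.5-fold apart in high cells, beside 3.64% of all genes. At that share few of 27 genes would be called, so the count says little of naive genes. The high cells of both libraries had also passed the same limit of the naive score. This fold is larger than the one used between high and low cells. Smaller differences went both ways, with Lifr at 42.7 CPM in control and 29.1 in sonKD and Ooep at 215 and 289. Of the 5383 genes 196, or 3.64%, were at least 1.5-fold apart between sonKD and control high cells, 85 higher in sonKD and 111 lower. In low cells 83 were higher and 191 lower, and 81 were called the same way in both classes. Of the 27 other naive genes 0 were past 1.5-fold in high cells, with a median log2 ratio of 0.04 beside -0.09 for all genes. In low cells their median was -0.16 beside -0.08, with 1 lower. The 7 score genes had ratios from -0.14 to 0.26 in high cells, but the score fixes their sum.

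The genes named next were past 1.5-fold in high cells. Neat1, the RNA that builds paraspeckles, was at 124 CPM in control high cells and 380 in sonKD high cells, a ratio of 1.61 (1.45 to 1.77), and at 69.6 and 166 in low cells. It was thus higher in high than in low cells of both libraries, by 0.84 and 1.19, and by 0.24 and 0.46 at equal long-gene share. S100a6, a calcium-binding protein, was at 96.7 and 211 CPM in high cells, a ratio of 1.13 (0.93 to 1.33), beside 1.28 (1.15 to 1.41) in low cells. The 10 high cells with the most of its UMIs held 24.1% in control and 47.4% in sonKD. Free droplet RNA held S100a6 at 173 CPM in control and 293 in sonKD. Id1 was at 226 and 134 CPM, a ratio of -0.76 (-0.97 to -0.56), beside -0.32 in low cells. Droplet RNA held Id1 at 331 CPM in control and 170 in sonKD, above the high cells of each library. Cdkn1c had -0.87 (-1.46 to -0.31) in high cells beside 0.18 (-0.07 to 0.43) in low cells. Droplets held Cdkn1c at 44.1 CPM in control and 23.1 in sonKD, also above the 31.9 and 17.5 of high cells. The part of free RNA in these ratios was not tested. Dnmt3b had -0.63 (-1.11 to -0.17) beside 0.30 (-0.02 to 0.63). For Cdkn1c and Dnmt3b the interval of the low cells reached 0, and the difference between the classes was not tested.

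By list, and beside the 3.64% of all genes, 2 of 11 formative and primed genes were lower in sonKD high cells, Dnmt3b and Id1, which are also on the DNA methylation and BMP lists. The DNA methylation list had 2 of 8 lower and the BMP list 1 of 5. The LIF, S phase, G2/M, integrated stress response and glycolysis lists had 1 lower each. Among p53 targets 2 of 16 were higher and 0 lower, with a median of 0.23 in high cells and -0.19 in low cells. Krt18 had -0.03 (-0.78 to 0.68) in high cells and 0.99 (0.73 to 1.26) in low cells. Malat1 was level, with 0.02 in high and -0.08 in low cells.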

How the data were processed

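Single-cell RNA of 2 libraries, control and sonKD, was analysed, with groups taken from the sample titles and 1 library in each. The deposited values are raw UMI counts, a whole number for each gene in each barcode, made by the authors with Cell Ranger 7.1.0 per the file headers and on mm10 per the submitters' processing notes. The annotation used and whether intronic reads were counted are not given in the sources used here, and the labels name different NextSeq models in different fields. All barcodes are listed, so cells were chosen here: at least 2500 UMIs, at least 1000 genes and no more than 10% of UMIs from mitochondrial genes. Ambient RNA was not subtracted. Scrublet in scanpy 1.11.5 called 3 control and 1 sonKD barcodes, under the 0.5% taken as a working call, so doublets were kept. An alternative removed 198 and 60 barcodes, of which 12 and 0 were high cells.

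Counts were summed per library and class and scaled to CPM with Python 3.11.15, numpy 2.4.6, pandas 2.3.3 and scipy 1.17.1. Genes that averaged 25 CPM or more over the 4 sums were compared, without the 7 score genes. No pseudocount was added, but for ratios and their intervals a summed count under 3 was set to 3. Intervals are at 95%, exact binomial for shares and, for ratios, exact conditional binomial, and cover counting error only. No test was made, since values of the same cells chose the classes and each treatment had 1 library. The scripts were tested on simulated data. Gene positions come from GENCODE M21 on GRCm38, where 32158 of 32285 identifiers were found.

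The members, the 22 gene lists and the naming rule were chosen with earlier results of these data known. The text names the score genes, the 10 highest and 10 lowest called genes by mean log2 ratio, the 2 farthest members of each list, and Pou5f1, Sox2, Zfp42, Klf2, Dppa3, Dnmt3b, Otx2, Son and Malat1. Other list members, the promoters printed and the ranking at equal long-gene share were chosen after the values were seen. Alternatives were tried for the UMI minimum, the mitochondrial limit, depth, ranks within libraries, the size of the classes, split UMIs, doublets, the CPM total, the CPM minimum and the fold.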

Additional observations from a re-analysis of the deposited data

How the results depend on the processing

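Of 112 values of the 10 main results under the alternatives, 80 stayed within the limits set (such as the interval of a share or 1.5 times a count), 32 moved and 0 reversed. The share of control cells that were high was 10.6% after thinning to 2500 UMIs, 10.0% with ranks within each library, 10.1% within depth deciles, 10.1% within deciles of long-gene share and 21.9% with classes of 20%. In sonKD these were 8.93%, 10.0%, 10.2%, 10.2% and 16.6%. Ranking within a library sets the share by construction. The 1237 genes higher became 550 after thinning, 188 at equal long-gene share, 1940 from 10 CPM, 672 from 50 CPM and 419 at 1.5-fold. The 261 lower became 81 after thinning, 114 with classes of 20%, 474 without mitochondrial and ribosomal genes in the CPM total, 402 from 10 CPM and 34 at 1.5-fold. The sonKD median of other naive genes was 0.19 after thinning and 0.25 with classes of 20%. That of formative and primed genes was -0.13 after thinning, -0.036 within depth deciles, -0.0048 with classes of 20% and -0.042 from 10 CPM, all closer to 0 than the value of -0.44 in the report. The score genes read by the other 6 had a median of 0.53 after thinning. The 196 genes apart between treatments became 106 with classes of 20%, 409 with split UMIs, 527 from 10 CPM, 81 from 50 CPM and 28 at 2-fold. Fewer or more genes or UMIs enter in these settings, and otherwise the cause was not tested. Of 630 values of 63 named genes, 511 kept, 117 moved and 2 reversed, which were P2rx7 at up to 5% mitochondrial UMIs, with a mean log2 ratio of 0.052, and Trib3 after thinning, with 0.037. No paired analysis was possible because each group held 1 sample and no test was made. A median of 2 to 21 score UMIs per cell limits the placing of single cells.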
